A study of Mus musculus with 8 samples.

Results

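The genes described here encode the machinery that copies DNA and divides cells, and the question put to them was whether their levels in mouse dorsal skin followed imiquimod treatment or the amount of hair follicle tissue. They were given as a list of 40 gene symbols. Each was represented by its probe set that carries 1 symbol, and, where several qualified, by the probe set that was brightest on average. Of the 40, 38 were measured among 22180 genes in all, and Ccne2 and Ccnb1 were not analysed here. Imiquimod cream (IMQ) contains an agonist of Toll-like receptors and induces psoriasis-like inflammation of mouse skin. The series held 8 Affymetrix arrays of dorsal skin RNA from male mice, 1 array for each label.

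The arrays WT_CTRL and WT_IMQ came from C57BL/6 mice. The arrays KO_CTRL, KO_CTRL-B, KO_Allo, KO_IMQ, KO_IMQ_B and KO_IMQ_Allo came from the strain B6.Cg-Il22ra1tm1.1Koll/J, which carries a targeted allele of the IL-22 receptor alpha chain. The labels say neither in which cells that allele was deleted nor what the letter B stands for. On the 4 IMQ labels, 83.3 mg of a 5% cream was put on the skin daily from day 1 to day 7. The labels add that treated mice received either vehicle or alloferon cream 6 hours after IMQ, alloferon being a peptide first found in insects. The labels do not say whether the 4 arrays without IMQ in their names received vehicle. The study states 4 mice per group, but whether an array holds 1 mouse or a pool is not given, so the p-values below reflect how far these arrays scatter, and some of that scatter may be technical.

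A dividing cell loads the MCM helicase ring onto origins and copies its DNA, then condenses its chromosomes, attaches them to a spindle under the control of a checkpoint, and splits. The transcripts of these steps accumulate in waves. Replication genes are switched on by E2F factors, and mitotic genes are switched on later by MYB and FOXM1 complexes that act at a promoter element named CHR (cell cycle genes homology region). In skin, the basal epidermis and the hair matrix at the base of a growing follicle are the main dividing tissues. A growing follicle is rich in such cells and a resting one is not, whereas IMQ is known to thicken the epidermis.

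The promoters below are shown because both replication and mitotic genes are read from such elements. Among the members with a promoter window, they are the 2 replication members and the 2 other members with the smallest unadjusted p for the relation to hair follicle content described further on. Kif20a and Ccna2, whose p was smaller than that of Bub1b, had no window here. Each is the RefSeq window of GRCm38.p6 from 250 bases before to 50 bases after the gene's start, read 5′ to 3′ on the gene's strand. Capitals mark the element TTTGAA, its variant TTTAAA, the CCAAT box and the site TTTNNCGC, on either strand. Mcm2 lies at chr6:88898731-88899030 on the minus strand, Mcm5 at chr8:75109259-75109558 on the plus strand, Birc5 at chr11:117848987-117849286 on the plus strand and Bub1b at chr2:118597961-118598260 on the plus strand.
Mcm2: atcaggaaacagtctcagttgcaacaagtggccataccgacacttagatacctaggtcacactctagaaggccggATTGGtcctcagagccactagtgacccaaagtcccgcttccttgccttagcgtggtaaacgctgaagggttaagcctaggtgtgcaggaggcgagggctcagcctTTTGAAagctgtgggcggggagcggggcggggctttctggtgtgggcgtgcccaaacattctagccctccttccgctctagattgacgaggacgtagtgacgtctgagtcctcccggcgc
Mcm5: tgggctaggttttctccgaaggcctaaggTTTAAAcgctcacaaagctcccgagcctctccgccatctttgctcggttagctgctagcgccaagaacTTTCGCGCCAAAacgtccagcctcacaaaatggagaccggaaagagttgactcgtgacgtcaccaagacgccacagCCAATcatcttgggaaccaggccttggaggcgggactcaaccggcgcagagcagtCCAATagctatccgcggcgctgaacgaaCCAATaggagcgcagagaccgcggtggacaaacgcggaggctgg
Birc5: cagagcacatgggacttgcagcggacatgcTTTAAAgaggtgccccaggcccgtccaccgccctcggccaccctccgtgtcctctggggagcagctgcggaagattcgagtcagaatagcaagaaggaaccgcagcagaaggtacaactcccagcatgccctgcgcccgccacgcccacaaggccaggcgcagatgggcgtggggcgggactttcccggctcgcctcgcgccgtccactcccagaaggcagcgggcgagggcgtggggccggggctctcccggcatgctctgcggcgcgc
Bub1b: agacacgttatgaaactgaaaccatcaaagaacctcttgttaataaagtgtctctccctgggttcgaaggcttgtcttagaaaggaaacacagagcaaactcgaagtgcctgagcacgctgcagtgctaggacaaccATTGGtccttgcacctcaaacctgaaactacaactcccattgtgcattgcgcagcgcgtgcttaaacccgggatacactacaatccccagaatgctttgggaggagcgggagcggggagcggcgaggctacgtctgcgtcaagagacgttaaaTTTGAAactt

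The windows of the 2 kinds of member differed in TTTGAA and TTTNNCGC and were more alike in CCAAT and TTTAAA. A window was found for 33 of the 40 listed genes, 9 of them replication members, and for 27025 genes in all. TTTGAA, the CHR, stood in 18 of the 24 windows of the other members (75.0%), in 1 of the 9 replication windows (11.1%) and in 18.1% of all promoters. TTTNNCGC, a form of the E2F site, stood in 5 of the 9 replication windows (55.6%), in 1 of the 24 others (4.17%) and in 5.27% of all promoters. CCAAT, the box bound by NF-Y, stood in 28 of the 33 (84.8%; 88.9% of replication windows and 83.3% of the others) and in 37.9% of all promoters. TTTAAA, which reads the same on both strands, stood in 9 of the 33 (27.3%; 22.2% and 29.2%) and in 13.2% of all promoters. Of the printed windows, Mcm5 and Bub1b follow the contrast of TTTGAA and TTTNNCGC. Mcm2 instead holds TTTGAA and no TTTNNCGC, and Birc5 holds neither TTTGAA nor CCAAT. In Mcm5 the capital run of 12 letters holds 2 overlapping TTTNNCGC matches, 1 on each strand. These are matches of letters and were not tested for binding.

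The state of the tissue differed strongly between the arrays. In the order WT_CTRL, KO_CTRL, KO_CTRL-B and KO_Allo, the median log2 level of 20 hair follicle genes (keratins and other proteins of the shaft and inner root sheath) was 9.72, 7.18, 10.11 and 8.97. In the order WT_IMQ, KO_IMQ, KO_IMQ_B and KO_IMQ_Allo it was 6.28, 5.47, 8.05 and 6.62. Every IMQ array thus lay below its own partner without IMQ, but KO_CTRL lay below KO_IMQ_B. The 4 wound keratins (Krt6a, Krt6b, Krt16 and Krt17), made by stressed and overgrowing epidermis, had medians of 7.53, 6.99, 8.65 and 11.08 without IMQ and of 11.93, 12.25, 12.32 and 11.65 with IMQ. On this list KO_Allo stood apart from the other arrays without IMQ. The 8 induced cornified envelope and alarmin genes had medians of 5.04, 5.18, 5.56 and 7.30 without IMQ and of 10.26, 11.10, 10.73 and 10.44 with it, in the same order, so that here KO_Allo lay between the groups and nearer to the arrays without IMQ. Other tissues moved too. The 7 general leukocyte genes had medians of 6.97 to 7.32 without IMQ and 7.68 to 8.79 with it, the 15 skeletal muscle genes 8.40 to 10.67 and 7.84 to 8.36, and the 6 melanocyte genes 6.87 to 8.67 and 6.37 to 7.01. The 7 basal epidermis genes had medians of 9.49 to 9.80 and 9.14 to 9.59. In RNA of whole skin, fewer cells of a type and less RNA per cell cannot be told apart. What part muscle, leukocytes and melanocytes have in the values below was not tested.

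Against these shifts the division genes moved little. The range of a member over the 8 arrays had a median of 0.595 log2 units, beside 0.553 for all genes, and was under 1 for 37 of the 38. After each gene was set relative to its own mean over the 8 arrays, the median over the 38 members was 0.17, -0.33, 0.05 and -0.05 on WT_CTRL, KO_CTRL, KO_CTRL-B and KO_Allo, and -0.04, -0.09, 0.17 and 0.11 on WT_IMQ, KO_IMQ, KO_IMQ_B and KO_IMQ_Allo. The array that stood apart was thus KO_CTRL, which was not treated with IMQ. It was the lowest of the 8 arrays for 29 of the 38 members, whereas it was the lowest for 15.9% of all genes. KO_CTRL also had the lowest hair follicle median of the 4 arrays without IMQ and, with WT_CTRL, the highest muscle medians of the 8 (10.67 and 10.32). The highest array was WT_CTRL for 15 members and KO_IMQ_B for another 15, beside 12.7% and 9.79% of all genes.

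**Figure D1:**
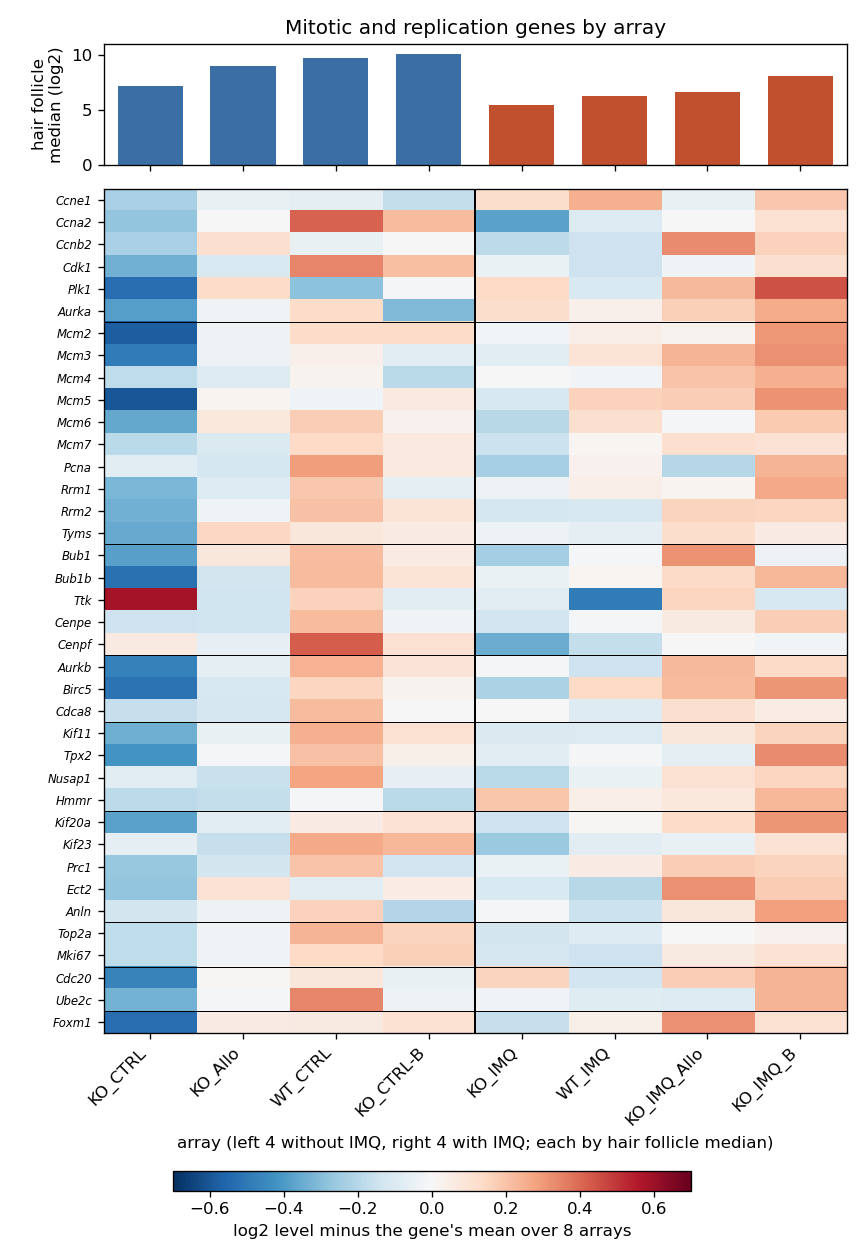
Log2 level of each of the 38 measured genes relative to its mean over 8 arrays (colour), with genes in rows grouped by role and arrays in columns ordered by hair follicle median within arrays without IMQ (left, blue bars) and with IMQ (right, red bars). The bars give the median log2 level of 20 hair follicle genes. The KO_CTRL column is the lowest for 29 genes, and no such block separates the IMQ arrays from the others.

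The helicase subunits and the other replication members act first in the cycle, and 8 of the 10 were lowest on KO_CTRL. In the same order of arrays as above, Mcm5, a subunit of the MCM ring, read 7.80, 7.22, 7.89 and 7.84 without IMQ and 7.99, 7.72, 8.14 and 7.998 with IMQ. Mcm2, another subunit of the ring, read 7.50, 6.80, 7.50 and 7.34 without IMQ and 7.42, 7.35, 7.67 and 7.39 with it. Mcm3 read 7.22, 6.70, 7.11 and 7.15 without IMQ and 7.29, 7.11, 7.51 and 7.43 with it. For each of these 3 subunits KO_CTRL was the lowest array and KO_IMQ_B the highest, and the groups with and without IMQ overlapped. The remaining subunits Mcm4, Mcm6 and Mcm7 had narrower ranges of 0.43, 0.54 and 0.33 log2 units. Pcna, the sliding clamp of the DNA polymerases, read 9.18, 8.81, 8.96 and 8.76 without IMQ and 8.92, 8.66, 9.13 and 8.68 with it. Its lowest array was KO_IMQ and its highest WT_CTRL. Of the nucleotide suppliers, the ribonucleotide reductase subunits Rrm1 and Rrm2 had ranges of 0.58 and 0.54, and Tyms, the thymidylate synthase, one of 0.50, each with its lowest value on KO_CTRL.

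Among cyclins and kinases, Plk1 and Ccna2 had the widest ranges. Plk1, the kinase that drives spindle assembly and mitotic entry, read 7.41, 7.16, 7.68 and 7.82 without IMQ and 7.59, 7.83, 8.14 and 7.92 with it. Ccna2, the cyclin of DNA synthesis and early mitosis, read 8.45, 7.76, 8.26 and 8.04 without IMQ and 7.94, 7.66, 8.14 and 8.04 with it. Plk1 was thus highest on an IMQ array and Ccna2 on WT_CTRL. Ccne1, the cyclin that opens DNA synthesis, read 6.32, 6.16, 6.22 and 6.34 without IMQ and 6.63, 6.51, 6.57 and 6.34 with it. Its 4 IMQ arrays lay above the 4 others, although KO_Allo and KO_IMQ_Allo are equal to 2 decimals. Cdk1, the kinase that both mitotic cyclins activate, had a range of 0.68, the spindle pole kinase Aurka one of 0.65 and the mitotic cyclin Ccnb2 one of 0.55. All 3 were lowest on KO_CTRL.

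The checkpoint and kinetochore genes were mixed in their order of arrays. Ttk, the kinase that starts the spindle checkpoint, read 7.26, 7.69, 7.03 and 6.96 without IMQ and 6.61, 7.02, 6.99 and 7.25 with it. It had the widest range of the 38 (1.07) and was highest on KO_CTRL, the array on which 29 others were lowest. Bub1b, which holds back chromosome separation, read 7.60, 6.86, 7.48 and 7.26 without IMQ and 7.40, 7.34, 7.62 and 7.52 with it. Cenpf, a large kinetochore protein, read 7.84, 7.48, 7.52 and 7.36 without IMQ and 7.25, 7.07, 7.40 and 7.42 with it. Bub1b was lowest on KO_CTRL and highest on KO_IMQ_B, and Cenpf was lowest on KO_IMQ and highest on WT_CTRL. Bub1, the checkpoint kinase, and Cenpe, the kinetochore motor, had ranges of 0.70 and 0.37 and were lowest on KO_CTRL.

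The chromosomal passenger complex corrects faulty attachments and then directs the split of the cell. Birc5 (survivin), one of its subunits, read 5.88, 5.22, 5.76 and 5.62 without IMQ and 5.88, 5.51, 6.04 and 5.96 with it. Aurkb, its kinase, read 7.47, 6.75, 7.31 and 7.15 without IMQ and 7.08, 7.21, 7.36 and 7.45 with it. Both were lowest on KO_CTRL, and Aurkb was highest on WT_CTRL. The remaining subunit measured, Cdca8 (borealin), had a range of 0.38.

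The spindle proteins and the genes of cytokinesis were less uniform in their lowest array, which was KO_CTRL for Tpx2, Kif11, Kif20a, Prc1 and Ect2, KO_IMQ for Nusap1 and Kif23, and KO_CTRL-B for Hmmr and Anln. Tpx2, which activates Aurka at the spindle, read 8.09, 7.47, 7.93 and 7.88 without IMQ and 7.87, 7.81, 8.22 and 7.82 with it. Kif20a, a motor of the central spindle, read 7.58, 7.15, 7.63 and 7.45 without IMQ and 7.53, 7.38, 7.83 and 7.65 with it. Hmmr, a spindle pole protein that also binds hyaluronan, read 6.66, 6.49, 6.48 and 6.51 without IMQ and 6.72, 6.87, 6.91 and 6.74 with it. Of the 3, Hmmr was the one whose IMQ arrays all lay above the others. The range was 0.59 for Kif11, which pushes the spindle poles apart, and 0.47 for the microtubule binder Nusap1. For cytokinesis it was 0.53 for the motor Kif23, 0.47 for Prc1, which bundles the central spindle, 0.60 for Ect2, which activates RhoA at the cleavage plane, and 0.49 for the scaffold Anln.

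The 2 genes here most often used to mark dividing cells overlapped between arrays with and without IMQ. Mki67, which encodes the antigen Ki-67, read 10.16, 9.85, 10.19 and 10.004 without IMQ and 9.88, 9.91, 10.13 and 10.09 with it. Top2a, the topoisomerase that untangles chromosomes, read 9.07, 8.65, 8.98 and 8.81 without IMQ and 8.73, 8.70, 8.86 and 8.82 with it. For both, the highest IMQ array lay below the highest array without IMQ, and KO_CTRL was the lowest of all. Cdc20, which activates the ubiquitin ligase that ends mitosis, had a range of 0.70, and Ube2c, the conjugating enzyme of that ligase, one of 0.67. Foxm1, the transcription factor of the mitotic wave, read 7.39, 6.80, 7.44 and 7.39 without IMQ and 7.38, 7.17, 7.44 and 7.66 with it.

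The first comparison asked whether IMQ changed these genes over the 4 pairs of arrays that share genotype and label: WT, KO plain, KO B and KO Allo. No member passed the test in limma (adjusted p under 0.05 over all 22180 genes) in either direction. Of all genes, 421 were higher with IMQ (1.9%) and 264 lower (1.19%). An unadjusted p under 0.05 was found for 5 members and for 18.8% of all genes. The members were brighter than most genes, with a median of mean levels of 7.47 against 6.06 for all genes. With genes above the median level alone, 37 members were left, and 5 of them and 27.8% of those genes had such a p. The median difference over the members was 0.09 log2 units, beside -0.01 for all genes, with 30 members above 0 and 8 below, beside 48.3% of all genes above 0. The median moved between 0.05 and 0.17 when 1 pair was left out, being highest without the WT pair.

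The largest positive differences belonged to Plk1, Aurka and Mcm3. Plk1 differed by 0.35 ± 0.12 (SE, 4 pairs; limma adjusted p = 0.192), with a 95% interval of 0.06 to 0.64. Mcm3 had the smallest adjusted p of the members, 0.191, at 0.29 ± 0.10. Aurka, Hmmr, Mcm5 and Ccne1 differed by 0.29, 0.28, 0.27 and 0.25, and Birc5, Cdc20 and Mcm4 by 0.23, 0.21 and 0.21. On the other side stood Cenpf at -0.27 ± 0.13, Ttk at -0.27 ± 0.18 and Ccna2 at -0.18 ± 0.11, followed by Kif23 at -0.14. The proliferation marker Mki67 differed by -0.05 ± 0.10 (95% interval -0.29 to 0.19), Top2a by -0.10 ± 0.10 and Pcna by -0.08 ± 0.10. The 95% intervals of all 38 members lay between -0.69, the lower bound of Ttk, and 0.64, the upper bound of Plk1. Only Ccne1 and Hmmr had all 4 IMQ arrays above the 4 others, and no member had them all below, beside 5.96% and 5.04% of all genes.

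The same fit called changes in the tissue lists, which were chosen with earlier results of these data known. Their calls therefore describe the tissue and are no independent test. Of the 20 hair follicle genes, 16 passed as lower with IMQ, with a list median of -2.53 log2 units. Of the 8 induced cornified envelope and alarmin genes all 8 passed as higher, with a list median of 4.51. Of the 4 wound keratins 1 passed as higher, with a list median of 3.51, and of the 7 leukocyte genes 4 passed, with a median of 1.02. Of the 6 melanocyte genes 5 passed as lower, and of the 15 muscle genes 4 did. These calls needed the WT pair and the KO B pair: without the former no gene passed in either direction, and without the latter 0 passed as higher and 2 as lower.

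**Figure D2:**
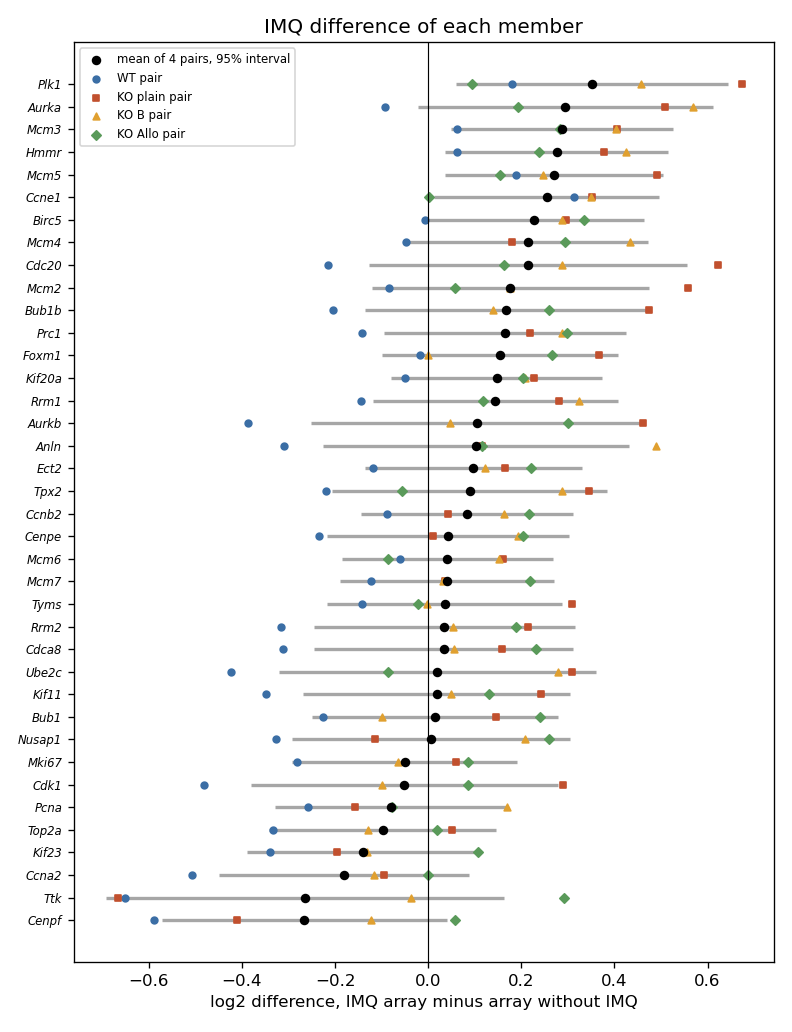
Log2 difference between the IMQ array and its partner without IMQ for each of 38 genes (vertical axis), in each of 4 pairs (coloured symbols) and as the limma estimate over the pairs (black points) with its 95% interval (grey bars). The WT pair lies left of the 3 KO pairs for most genes, and the intervals lie between -0.69 and 0.64.

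Pair by pair, the sign of the difference was not shared. In the WT pair 33 of the 38 members were lower on the IMQ array and 5 were higher, with a median of -0.21 log2 units. In the KO plain pair 32 were higher and 6 lower, with a median of 0.22. The KO B pair had 29 higher and 9 lower with a median of 0.17, and the KO Allo pair 32 and 6, also with a median of 0.17. Of all genes, 52.5%, 49.7%, 52% and 49.9% were lower with IMQ in the WT, KO plain, KO B and KO Allo pairs. No member differed by 1 log2 unit or more in any of the 4 pairs, where 4.62%, 4.91%, 3.12% and 1.71% of all genes did in the WT, KO plain, KO B and KO Allo pairs. Across the same pairs the hair follicle median differed by -3.45, -1.71, -2.07 and -2.35, and the wound keratin median by 4.39, 5.26, 3.67 and 0.57. The WT pair thus had the largest loss of hair follicle signal and the only negative median of the division genes.

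**Figure D3:**
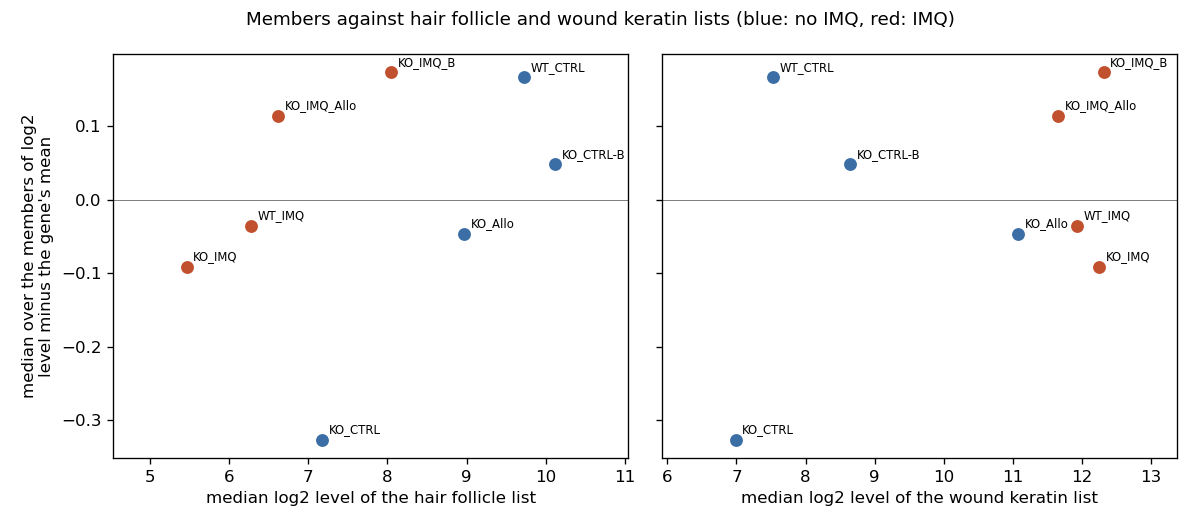
Median over 38 genes of the log2 level relative to each gene's mean over 8 arrays (vertical axis) against the median log2 level of 20 hair follicle genes (left) or of 4 wound keratins (right), 1 point per array, blue without IMQ and red with IMQ. Within the red points the order is that of the hair follicle median. Within the blue points it is not. There KO_CTRL lies lowest at -0.33, but KO_CTRL-B, with the highest hair follicle median, lies at 0.05, below WT_CTRL at 0.17.

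The second comparison asked about hair follicle content. A limma fit over the 8 arrays held IMQ status and the hair follicle median together. The slope is the change of a gene in log2 units per log2 unit of hair follicle median among arrays of the same IMQ status. This fit had no level for the pairs, so genotype, the letter B and alloferon were not terms in it. At each IMQ status the hair follicle median was lowest in the KO plain pair (7.18 without IMQ, 5.47 with it). It was highest in the KO B pair (10.11 and 8.05). The slope therefore cannot be told apart from a difference between these pairs. The slope was above 0 for 37 of the 38 members, beside 50.3% of all genes, with a member median of 0.12 and an all-gene median of 0.00. No member passed the test. Of all genes, 38 passed with a positive slope (0.171%) and 0 with a negative one (0%). An unadjusted p under 0.05 was found for 20 members and for 8.45% of all genes. With genes above the median level alone, 21 of 37 members and 11.7% of those genes had such a p. There, 36 members and 56% of those genes had a slope above 0. The exception was Ttk, at -0.11 ± 0.08.

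The steepest slopes came from replication and mitotic genes alike. Birc5 had 0.20 ± 0.05 (SE, 8 arrays; limma adjusted p = 0.24), Mcm2 0.20 ± 0.04 (adjusted p = 0.221) and Mcm5 0.20 ± 0.05 (adjusted p = 0.26). Kif20a had the smallest adjusted p, 0.217, at 0.17 ± 0.04. Ccna2, Bub1b and Tpx2 had slopes of 0.19, 0.19 and 0.18. Mki67 had 0.11 ± 0.04 and Top2a 0.10 ± 0.04, and the shallowest positive slopes were those of Hmmr and Ccne1, both 0.03. By role, the median slope was 0.14 for the 10 replication members, 0.12 for the 6 cyclins and kinases, 0.09 for the 5 checkpoint and kinetochore members and 0.16 for the 3 passenger complex members.

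The slope depended in part on KO_CTRL. Without that array 37 of the 38 slopes were still above 0 and the median was 0.10, but 4 members and not 20 had an unadjusted p under 0.05, and 3.54% of all genes did. The members were read on the same arrays, so such counts of members are not counts of independent observations. Among the 4 arrays without IMQ alone, 37 were above 0 with a median of 0.14. When IMQ status was left out of the fit, 31 were above 0 and the median fell to 0.04. Hair follicle median and IMQ status were themselves correlated over the 8 arrays (Pearson's r = -0.757, a description of the design), so the fit separates them on few arrays. In the same fit 11 of the 20 hair follicle genes, which define the measure, and 3 of the 6 melanocyte genes passed with a positive slope. Without KO_CTRL no gene passed, so these calls ended too. The 15 muscle genes had a median slope of -0.34, with 0 passing, and with the muscle median as a further term the member median was 0.14.

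The third comparison read the IMQ term of that fit, which is the IMQ difference at a given hair follicle content. For each gene this term equals the IMQ difference of the first comparison plus a product. That product is the slope times the gap in mean hair follicle median between arrays without and with IMQ. Positive slopes thus raise the term by construction, and it is not an independent result. The term was above 0 for 36 of the 38 members, beside 49.8% of all genes. Its median over the members was 0.36 log2 units, against 0.00 for all genes. Again no member passed, and neither did any other gene in either direction (0%). An unadjusted p under 0.05 was reached by 19 members and 12.8% of all genes. With genes above the median level alone, it was reached by 20 of 37 members and 19.3% of those genes. Mcm5 had 0.74 ± 0.14 (SE, 8 arrays, limma adjusted p = 0.184), Birc5 0.71 ± 0.15, Plk1 0.71 ± 0.21 and Mcm3 0.67 ± 0.14. Mcm2 had 0.66 ± 0.14, Bub1b 0.61 ± 0.15, Foxm1 0.56 ± 0.18 and Kif20a 0.55 ± 0.12. The adjusted p of Mcm5 was the smallest among the members and was shared by Birc5, Mcm3, Mcm2 and Kif20a. The exceptions were Ttk at -0.53 ± 0.27 and Cenpf at -0.06 ± 0.18. Mki67 had 0.21 ± 0.13 and Top2a 0.15 ± 0.13. Without KO_CTRL, 37 terms were above 0 with a median of 0.31, and 4 members had an unadjusted p under 0.05. Both terms were thus positive for most members in 1 fit, they share all arrays, and neither passed for any member.

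**Figure D4:**
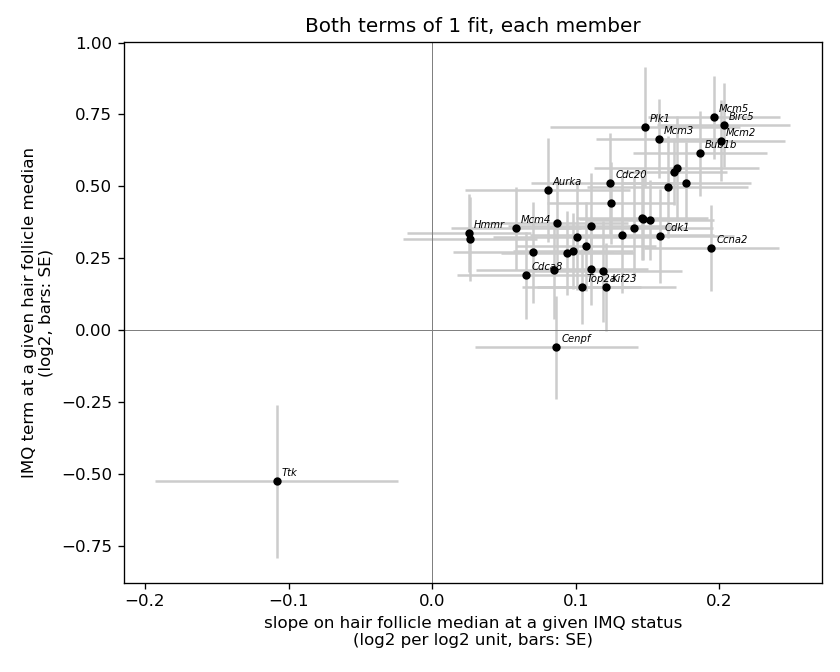
Slope on the hair follicle median at a given IMQ status (horizontal axis, log2 per log2 unit) and IMQ term at a given hair follicle median (vertical axis, log2) for each of 38 genes from 1 limma fit over 8 arrays, with grey bars for the standard errors. All points but Ttk lie right of 0, and all but Ttk and Cenpf lie above 0.

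The IMQ difference was also fitted separately for WT and KO. The 2 WT arrays leave no residual in this fit, so its errors come from the scatter of the 3 KO pairs. For WT and for WT minus KO, effect sizes alone are therefore given. In WT the member median was -0.21. The lowest members were Ttk at -0.65, Cenpf at -0.59 and Ccna2 at -0.51, and the highest was Ccne1 at 0.31. In KO the median was 0.17 and no member or other gene passed (0%). The largest KO differences were those of Aurka at 0.42 ± 0.12, Plk1 at 0.41 ± 0.15, Mcm3 at 0.36 ± 0.11, Cdc20 at 0.36 ± 0.13, Hmmr at 0.35 ± 0.11 and Birc5 at 0.31 ± 0.10, with limma adjusted p-values of 0.241 to 0.328. The WT difference lay below the KO difference for 37 of the 38 members, with a median of -0.35. Of all genes, 47.1% had a WT difference above the KO difference. Among the members the gap was largest for Aurkb, at -0.66. Lower in the WT pair and higher in all 3 KO pairs were 19 members, beside 5.46% of all genes, and no member had the opposite pattern (4.82% of all genes). WT is here 1 pair of arrays.

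The arrays labelled KO and WT were compared at a given IMQ status. The member median was -0.10 with 32 members lower in KO, whereas 53.3% of all genes were higher in KO. No gene passed in limma in either direction (0%), and 0 members and 5.88% of all genes had an unadjusted p under 0.05. The member median turned to 0.08 without WT_CTRL and was -0.29 without WT_IMQ. Among the arrays without IMQ, KO_CTRL lay below WT_CTRL for 37 of the 38 members, beside 49.1% of all genes. The member median was -0.45, led by Bub1b at -0.74. No member differed by 1 log2 unit or more, whereas 1.34% of all genes did. KO_CTRL-B, which the labels place in the same genotype as KO_CTRL, lay closer to WT_CTRL, with a median of -0.14. KO_CTRL lay below KO_CTRL-B for 34 of the 38, beside 51.7% of all genes, with a member median of -0.34. The hair follicle median of KO_CTRL differed from that of WT_CTRL by -2.55 log2 units and from that of KO_CTRL-B by -2.94.

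Alloferon was compared with the other KO arrays at a given IMQ status. The member median was 0.06 with 29 members higher, beside 51% of all genes. No gene passed in limma (0%), and 0 members and 4.65% of all genes had an unadjusted p under 0.05. The largest differences were those of Bub1 at 0.35 ± 0.16, Foxm1 at 0.31 ± 0.20 and Ccnb2 at 0.28 ± 0.14. The result changed with the array that alloferon was set against. KO_Allo lay above KO_CTRL for 33 members with a median of 0.29 and below KO_CTRL-B for 23 with a median of -0.06. KO_IMQ_Allo lay above KO_IMQ for 35 members with a median of 0.19 and below KO_IMQ_B for 26 with a median of -0.08. Of all genes, 47.7% were lower on KO_Allo than on KO_CTRL and 50.5% lower than on KO_CTRL-B. On KO_IMQ_Allo, 49.6% were lower than on KO_IMQ and 49.4% lower than on KO_IMQ_B.

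The rest of the cell cycle was read from 147 other genes, of which 138 were measured. They shared the pattern of the members at smaller size. Their median difference with IMQ was 0.03 (82 above 0 and 56 below), their median hair follicle slope 0.07 (120 and 18) and their median IMQ term at a given hair follicle content 0.21 (113 and 25). Relative to each gene's mean their median was lowest on KO_CTRL, at -0.16, and highest on KO_IMQ_B and WT_CTRL, at 0.11 and 0.10. With IMQ 0 of them passed as higher and 2 as lower, and 1 passed with a positive slope, all D cyclins, which link growth signals to the start of the cycle.

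Ccnd2 read 10.45, 9.91, 10.41 and 10.35 without IMQ and 9.45, 8.71, 9.67 and 9.79 with it, so that the groups did not overlap. It fell by 0.87 ± 0.13 log2 units with IMQ (limma adjusted p = 0.0268). Ccnd1 read 9.52, 8.77, 9.50 and 9.32 without IMQ and 8.57, 8.26, 9.01 and 8.62 with it, with KO_CTRL below KO_IMQ_B. It fell by 0.67 ± 0.11 (adjusted p = 0.0352), and its slope on the hair follicle median, 0.27 ± 0.04, passed as well (adjusted p = 0.0435). The IMQ difference of Ccnd1 was -0.01 at a given hair follicle content, and that of Ccnd2 -0.29 ± 0.25. Leaving out the WT pair, the KO plain pair or the KO B pair ended both IMQ calls, with adjusted p-values of 0.0716 to 0.147, and so did comparing the 4 IMQ arrays with the 4 others without pairing (0.107 for Ccnd1 and 0.0729 for Ccnd2). The slope call of Ccnd1 was lost without any 1 of the 8 arrays (adjusted p = 0.0727 to 0.754). Ccnd3 differed by 0.27 ± 0.09 (adjusted p = 0.162) and Cdk6, a kinase partner of the D cyclins, by 0.42 ± 0.13 (adjusted p = 0.157). E2f2 and E2f7, an activating and a repressing member of the E2F family, differed by -0.56 and 0.34, and the inhibitors Cdkn2c and Cdkn1b by -0.43 and -0.33, and none of these 4 passed.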

How the data were processed

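Dorsal skin RNA of 8 mouse samples was read on 1 Affymetrix array each. The authors deposited log2 expression values of 41345 probe sets per array, for which the submitters' processing notes name the RMA method (robust multi-array averaging), Affymetrix Power Tools and R 3.3.2. RMA gives the arrays 1 common distribution, which removes a shift shared by most genes and compresses differences of dim genes. The largest gap between array medians was 0.05 log2 units, and no 2 arrays held identical values. There is no count or depth, and the number of arrays limits the precision.

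Of the probe sets, 23521 carried 1 gene symbol, 1814 several and 16010 none. Each gene was represented by its single-symbol probe set with the highest mean, and 4 members also lie on a probe set with several symbols, which was not used. Tests used lmFit and eBayes of limma 3.58.1 in R 4.3.3 with Benjamini-Hochberg adjustment over all 22180 genes and no filter on dim genes, and a gene passed at an adjusted p under 0.05. Errors written with ± are limma standard errors. The IMQ fit had a level for each pair of arrays and 3 residual degrees of freedom, the fit with the hair follicle median 5, the fit with separate IMQ effects for WT and KO 2, the KO against WT fit 5 and the alloferon fit on 6 KO arrays 3. The fits were tested on simulated data, where the IMQ fit and the hair follicle slope did not recover changes of the members' size, so a member that did not pass is not shown to be unchanged. Single arrays set against each other carry no replicate check, and differences of 1 log2 unit or more were counted there.

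The members, the gene lists and the genes named were chosen with earlier results of these data known. The choice of members given with values on every array followed no single rule. The other cell cycle genes named were among those with the largest IMQ difference in their list or had a call. Ccnd3 was added after its value was seen. Alternatives left out each array or pair, used a trended prior, genes above the median level, mean probe sets, subtracted array medians, other hair follicle lists and a muscle covariate. RefSeq promoters matched 33 of 40 members, 3 of them with several windows.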

Additional observations from a re-analysis of the deposited data

Results flagged for a closer look

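The median over the 38 members of the IMQ difference was -0.209 log2 units in the WT pair, whereas it was above 0 in each of the 3 KO pairs. This result is listed because the median of the 1 WT pair and the medians of the 3 KO pairs had opposite signs. By member, 19 of the 38 were lower in the WT pair and higher in all 3 KO pairs. The difference of the medians was not tested. Gene by gene, WT is 1 pair of arrays with no spread of its own, so a limma contrast cannot tell whether WT and KO differ.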

How the results depend on the processing

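No member passed in any comparison under any alternative run. With 1 array or its pair left out, the numbers of all genes passing as higher and as lower were 0 to 826 and 0 to 481 for IMQ over the 4 pairs, 0 to 59 and 0 to 1 for the hair follicle slope, 0 to 105 and 0 to 47 for IMQ at a given hair follicle content, 0 to 21 and 0 to 29 for IMQ in WT, 0 to 234 and 0 to 65 for IMQ in KO, and 0 to 2 and 0 to 1 for KO against WT, whose member median ran from -0.287 to 0.084. For IMQ over the 4 pairs, 416 genes passed as lower with genes above the median level alone, 826 as higher and 481 as lower without the Allo pair, and 0 and 0 with the hair follicle or the muscle median as a covariate. With the hair follicle covariate the member median was 0.63 and the Ccnd1 difference turned to 0.0024 (limma adjusted p = 0.999). Genes with a positive slope numbered 6 with the inner root sheath list, 83 with the hair shaft list (2 negative), 0 with the hair matrix regulators (member median 0.31), 8 with the muscle median as a further term and 271 without an IMQ term (46 negative; member median 0.035). With a trended prior 1 gene had a negative slope, as with genes above the median level alone, 1 passed as lower in WT, and 30 passed as higher and 20 as lower in KO. The causes were not tested. Effects in WT and their difference from KO could not be fitted without a WT array. The counts for IMQ in WT rest on the scatter of the KO pairs alone. No paired analysis by replicate number was possible because each label has 1 array.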
